A study of Bos indicus x Bos taurus with 11 samples.

Results

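Immediate early genes are genes that cells transcribe within minutes of a growth factor, serum or stress signal, without first making new protein. The 42 genes described here are such genes and close companions of the response, taken by name from a table of expected counts (estimated reads) for 27398 genes and assembled loci. Of the 42, 40 were found under the listed symbol, and CCN1 and CCN2 were found under their older symbols CYR61 and CTGF. All 42 had a place in the table, and 41 passed the filter on low counts. The exception was DUSP2, a nuclear phosphatase that inactivates ERK, with 0 counts in every control and at most 3 in a LOS library. Levels are given in CPM, counts scaled to the size of the library. The lowest member that passed was DUSP4, with a mean of 0.522 ± 0.494 CPM (SD, n = 5) in controls and 0.667 ± 0.480 (n = 6) in LOS.

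The RNA came from primary fibroblasts grown from the skin of 11 fetuses at day 105 of gestation, 1 culture and 1 library per fetus. Each fetus was an F1 hybrid of an indicine breed, Brahman, and a taurine breed, Angus. The 5 controls (CON_B; 2 female, 3 male) were conceived by artificial insemination, and the 6 fetuses with large offspring syndrome (LOS; 3 female, 3 male) were conceived by assisted reproduction and were heavier than the 97th centile of controls. Large offspring syndrome is a fetal overgrowth condition of cattle and sheep, and because all LOS fetuses and no control came from assisted reproduction, the syndrome and the conception method cannot be told apart here. All cultures were kept in medium with fetal bovine serum, and feeding times, passage number and culture density before lysis were not stated in the labels. Total counts per library ran from 12084822 to 19297167, and ribosomal RNA had been depleted. Markers of fibroblasts (COL1A1, COL1A2, DCN and others, 10 of 10 detected) summed to between 57210 and 68160 CPM in controls and between 54240 and 70030 CPM in LOS. Keratinocyte markers (8 of 10 found) summed to at most 24.7 CPM in any library. Leukocyte markers (6 of 7 found) summed to at most 1.82 CPM and skeletal muscle markers (5 of 7 found) to at most 4.18 CPM. Other lists reached higher sums: 280.5 CPM for pericyte and smooth muscle markers (7 of 7 found) and 73.3 CPM for endothelial markers (7 of 8). These sums were mostly 1 gene each. The first was in LOS 6, where CSPG4 alone had 259.4 CPM. The second was in LOS 1, where FLT1 alone had 68.7 CPM, PECAM1 0.0821 CPM and CDH5 0.985 CPM. Melanocyte and Schwann cell markers (3 of 8 found) reached 179.5 CPM.

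The pathway behind these genes is well known. Growth factors and serum bind receptor tyrosine kinases, which signal through RAS and the ERK kinases to the transcription factors that sit with SRF (serum response factor) at immediate early promoters, while actin dynamics act on SRF through the MRTF cofactors. The first products include subunits of the transcription factor AP-1 (FOS and JUN proteins), EGR factors and MYC, and these drive a later wave of genes. The response ends quickly, through phosphatases of the DUSP family and SPRY proteins that dampen ERK signalling and through ZFP36 proteins that destroy the short-lived mRNAs. In skin fibroblasts it is the textbook reaction to serum and wounding, and LOS concerns growth, so the question for these genes is whether their level in culture differs between overgrown and control fetuses.

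Between LOS and control, 0 of the 41 tested members were called by edgeR's quasi-likelihood test with sex as a covariate at a Benjamini-Hochberg adjusted p under 0.05, against a background of 0% (0 of 16946 genes), and the smallest adjusted p among members was 0.932. At an unadjusted p under 0.05 there were 5 members (12.2%), NOCT, IER5, EGR1, CCN1 and DUSP1, against 4.44% of all genes tested, and all 5 had higher means in LOS. The count of 5 depended on single libraries: it was 3 without control 1, 8 without LOS 1 and 10 without control 2. With DESeq2, 0 members were called (background 0.0295%) and 6 (14.6%) had an unadjusted p under 0.05, as did 903 of all 16946 genes tested. With limma voom, 0 members and 0 of all genes were called. There 4 members (9.76%) had an unadjusted p under 0.05, as did 837 of all 16946 genes tested. No member had all LOS values on one side of all control values, which held for 0.23% of all genes tested. These are bulk RNA measurements, so a difference in the number of cells that express a gene and a difference in RNA per cell cannot be told apart.

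Although no single gene passed, the estimates were lopsided: 30 of 41 members (73.2%) had a log2 fold change above 0 in LOS, against 49.8% of all genes tested, with a median of 0.106 against -0.000702 for all genes. The members were chosen with earlier results of these data known. Some of them also went up and down together between libraries, so the 41 estimates are not separate observations, and the share was not tested. The highest estimates belonged to EGR1 (0.71), IER5 (0.67), CCN1 (0.65), NOCT (0.64) and ZFP36 (0.60), and the lowest to NR4A2 (-0.75) and SPRY2 (-0.42). NR4A2 ranged from -1.17 (without control 2) to -0.425 (without LOS 6) when 1 library was left out. LOS 2, a female, held the highest value of all 11 libraries for 17 of 41 members and LOS 5, a male, for 10. With both left out, an alternative chosen after seeing the data, 21 members were higher and 20 lower, with a median of 0.00961; since the pair was chosen for its high values, a lower count was built into this choice. The number of members higher in LOS ranged from 26 to 33 when 1 library at a time was left out.

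**Figure D1:**
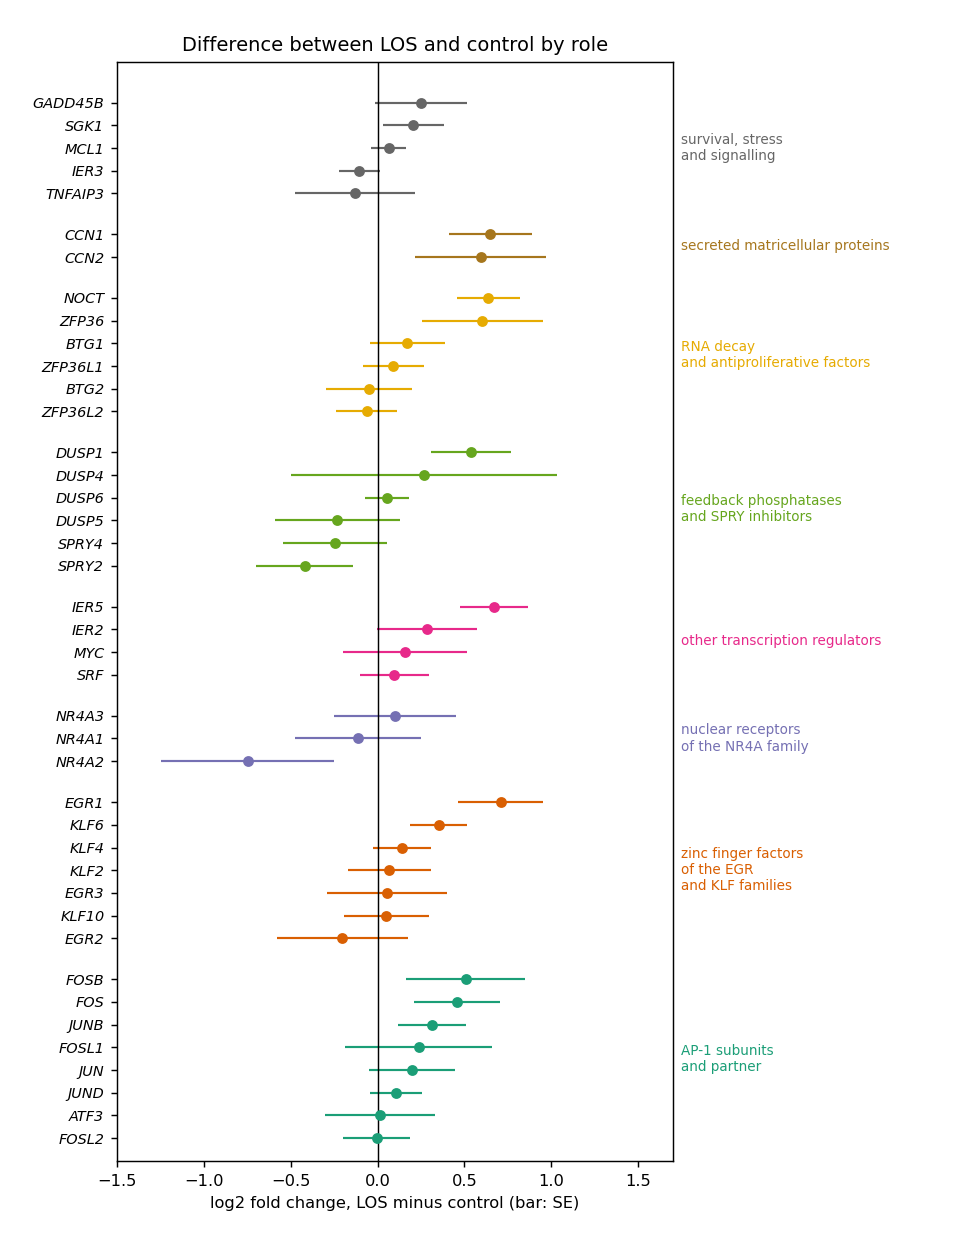
Log2 fold change, LOS minus control, of the 41 tested members with its SE (bars), grouped by role. The estimates run from -0.75 (NR4A2) to 0.71 (EGR1), and 30 of 41 points lie above 0, but 0 were called by edgeR.

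AP-1 is a pair of FOS and JUN family proteins that binds DNA as a dimer, and ATF3 is a stress-induced partner. Of its 8 members, 0 were called and 7 had estimates above 0 (49.8% of all genes tested did), with a median log2 fold change of 0.218. The estimates of JUND and ATF3 were among those that turned negative under an alternative. FOS, at chr10:86488949-86492375 in the build ARS-UCD1.2, had 410, 674, 451, 556 and 351 CPM in controls 1 to 5 and 390, 744.5, 577.5, 496.5, 973.5 and 844 CPM in LOS 1 to 6. LOS 5 and LOS 6, both males, lay above every control, as did the female LOS 2, while LOS 1 lay below 4 of the 5 controls, so the groups overlapped. The FOS means were 488 ± 128 CPM (SD, n = 5) and 671 ± 221 CPM (n = 6), a log2 fold change of 0.46 ± 0.25 (SE; edgeR adjusted p = 0.932).

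FOSB, a relative of FOS with the same dimer partners (chr18:53074343-53081311), had 316, 534, 380, 409 and 239.5 CPM in controls and 352, 518, 240, 399, 1056 and 750 CPM in LOS. The same males LOS 5 and LOS 6 were highest, and LOS 3 was as low as the lowest control. JUN, the main partner of FOS (chr3:87265962-87268009), had 208, 340, 218, 245 and 178 CPM in controls and 207, 234, 163, 266, 462 and 337 CPM in LOS. Its lowest library was LOS 3 and its highest LOS 5, so that the LOS group spanned the controls on both sides.

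JUNB, a JUN relative with weaker activating power (chr7:12736074-12737893), was tight in controls, with 89.3, 95, 103, 103 and 90.3 CPM, and ranged from 76 to 169 CPM in LOS, with 103, 169, 114, 76, 162 and 98.3 CPM in LOS 1 to 6. Its SD was 6.79 CPM in controls and 37.1 CPM in LOS, and the spread itself was not tested. ATF3, which is induced by many stresses (chr16:70924499-70937427), had 68.2, 109, 102, 88.6 and 74.5 CPM in controls and 92.5, 51.5, 35, 72.1, 180 and 122 CPM in LOS. The females LOS 2 and LOS 3 lay below all controls and the males LOS 5 and LOS 6 above all of them, and the group difference was 0.02 ± 0.32 on the log2 scale. FOSL1, FOSL2 and JUND had estimates of 0.24, -0.01 and 0.11.

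**Figure D2:**
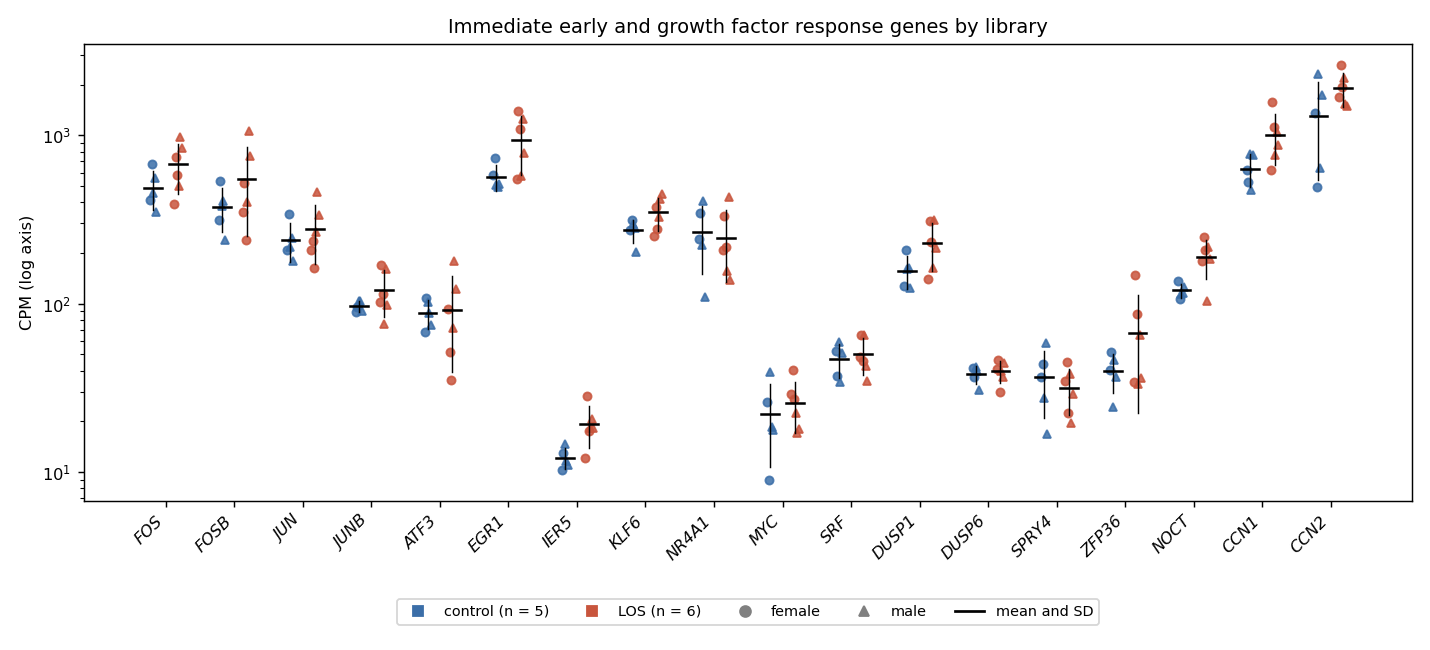
CPM (log axis) of 18 members in the 5 control libraries (blue) and the 6 LOS libraries (red), with circles for females and triangles for males and black marks for the mean and SD. The points of the groups overlap for each gene shown, and for IER5 and NOCT all LOS libraries but 1 lie above every control.

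Among the zinc finger factors, EGR1 stood out by size. EGR1 is the classical serum-induced activator under SRF control (chr7:49826725-49829568). It had 583, 733, 508.5, 492 and 512 CPM in controls and 548.5, 1397, 1093, 569, 1247 and 786.5 CPM in LOS. LOS 2, LOS 3, LOS 5 and LOS 6 lay above every control, while LOS 1 and LOS 4 lay within their range. The means were 566 ± 99.9 CPM (SD, n = 5) and 940 ± 358 CPM (n = 6), a log2 fold change of 0.71 ± 0.24 (SE; edgeR unadjusted p = 0.0142, adjusted p = 0.932).

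KLF6, a Krüppel-like factor induced early after injury (chr13:44597261-44606045), had 274, 313, 296, 282 and 202 CPM in controls and 252, 374, 276, 325, 418 and 445 CPM in LOS. Control 5 was the lowest, 4 LOS libraries lay above every control, and the log2 fold change was 0.35 ± 0.17 (unadjusted p = 0.0566, edgeR). The other EGR and KLF members did not share the size of the EGR1 estimate: EGR2, EGR3, KLF2, KLF4 and KLF10 had estimates of -0.20, 0.05, 0.07, 0.14 and 0.05. EGR2, a relative of EGR1 with a role in nerve myelination, had 9.44 ± 2.58 CPM in controls and 9.11 ± 6.28 CPM in LOS.

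The NR4A nuclear receptors, orphan receptors induced by serum and cyclic AMP, went no single way. NR4A1 (chr5:27822914-27839686) had 242, 346, 221.5, 407 and 109 CPM in controls and 207, 331, 218, 157, 429 and 139 CPM in LOS. Control 5, LOS 4 and LOS 6 were low and control 4 and LOS 5 high, so the groups covered nearly the same range. NR4A2 had a mean of 53.4 ± 23.7 CPM in controls and 39.5 ± 24.6 CPM in LOS. The males LOS 4 and LOS 6 were the lowest of all libraries, at 15.3 and 9.2 CPM. NR4A3 had an estimate of 0.10, and it shares part of its position with a locus assembled by the authors on the same strand, so its count is uncertain.

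SRF itself, the factor through which serum reaches FOS and EGR1 (chr23:16775130-16782650), had 52.1, 37.4, 59.3, 34.5 and 51.1 CPM in controls and 48.4, 65.4, 45.5, 65.2, 42.4 and 34.8 CPM in LOS. The groups overlapped over nearly their whole range, with a difference of 0.10 ± 0.20. MYC, which drives growth and cell cycle genes (chr14:12653171-12659616), had 25.9, 8.99, 39.4, 18.5 and 17.9 CPM in controls and 29.2, 40.4, 27.1, 22.4, 17.2 and 18 CPM in LOS. Control 2 was far below the rest, and without control 2 the estimate turned from 0.16 to -0.17.

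IER5, a small early response protein linked to heat shock factor signalling (chr16:62209097-62211289), had the second smallest p of the members. It had 10.3, 12.9, 14.7, 11.6 and 10.9 CPM in controls and 12.1, 28.4, 17.5, 18.1, 20.8 and 18.3 CPM in LOS. All LOS libraries except LOS 1 lay above every control, and the log2 fold change was 0.67 ± 0.20 (SE; edgeR unadjusted p = 0.00562, adjusted p = 0.932). IER2, a nuclear early response protein, had an estimate of 0.28. Its gene model overlaps CACNA1A and STX10 on the other strand, and the labels do not say whether counting used strand. On the same strand it overlaps an assembled locus (mean count 77.1) and a long noncoding RNA gene (6.91). The mean count of IER2 itself, 652, is therefore uncertain.

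The feedback arm of the pathway was split. DUSP1 is the nuclear phosphatase that inactivates p38, JNK and ERK and is itself an immediate early gene (chr20:4540528-4543611). It had 127, 209.5, 161.5, 162 and 124 CPM in controls and 139, 310, 231, 163, 313 and 213 CPM in LOS. LOS 2, LOS 3, LOS 5 and LOS 6 lay above every control, and the log2 fold change was 0.54 ± 0.23 (SE; edgeR unadjusted p = 0.0401, adjusted p = 0.932).

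DUSP6 is the cytoplasmic phosphatase specific for ERK, and its mRNA is commonly read as a gauge of sustained ERK output (chr5:19212969-19217523). It was one of the steadiest members, with 41.7, 36.5, 41.8, 39.6 and 30.5 CPM in controls and 40.8, 46, 29.8, 39.8, 36.6 and 44.4 CPM in LOS. The groups overlapped, with LOS 2 and LOS 6 above every control and LOS 3 below them all, and the log2 fold change was 0.06 ± 0.13 with a 95% interval from -0.22 to 0.34. SPRY4, an inhibitor of RAS-ERK signalling (chr7:53336846-53351179), had 36.8, 43.7, 27.5, 58.3 and 16.7 CPM in controls and 34.6, 44.8, 22.4, 38.1, 19.7 and 29.1 CPM in LOS. Control 5 was lowest and control 4 highest, and the estimate was -0.25 ± 0.30. SPRY4 overlaps a protein-coding gene on the other strand that had a mean count of 176, so its own mean of 538 is uncertain.

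Its relative SPRY2 had 23.5 ± 10.6 CPM in controls and 17.9 ± 4.51 CPM in LOS (estimate -0.42 ± 0.28). DUSP4 and DUSP5, inducible nuclear phosphatases for ERK, were at low counts, with estimates of 0.27 ± 0.76 and -0.23 ± 0.36. The 6 tested feedback members thus had 3 estimates above 0 and 3 below, from -0.42 (SPRY2) to 0.54 (DUSP1), and differences between these genes were not tested. Without control 4, which had the highest SPRY2 level, the SPRY2 estimate was -0.0744.

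Among the RNA decay factors, NOCT had the smallest p of all members. NOCT, or nocturnin, is a circadian phosphatase that acts on NADPH and belongs to the family of deadenylases (chr17:18582254-18600421). It had 137, 106.5, 114, 116 and 125 CPM in controls and 178, 249, 207, 104, 218 and 185 CPM in LOS. All LOS libraries except LOS 4 lay above every control, and LOS 4 lay below them all. The means were 120 ± 11.7 CPM (SD, n = 5) and 190 ± 49.4 CPM (n = 6), a log2 fold change of 0.64 ± 0.18 (SE; edgeR unadjusted p = 0.00445, adjusted p = 0.932).

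ZFP36, or tristetraprolin, binds AU-rich elements and speeds the decay of FOS-like and cytokine mRNAs (chr18:49101950-49104263). It had 40.1, 51.7, 24.4, 46.1 and 36.9 CPM in controls and 34.1, 147, 87, 33.5, 64.9 and 36 CPM in LOS. The females LOS 2 and LOS 3 and the male LOS 5 lay above every control, while the other LOS libraries lay among them, and the estimate of 0.60 had an SE of 0.35. Its relatives ZFP36L1 and ZFP36L2 had estimates of 0.09 and -0.06. BTG1 and BTG2, which restrain proliferation, had 0.17 and -0.05.

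The secreted matricellular proteins CCN1 and CCN2, which bind integrins and are targets of YAP and of SRF with MRTF, both had higher means in LOS. CCN1 (CYR61; chr3:58488393-58491302) had 620.5, 528, 776, 473 and 765 CPM in controls and 618, 1576, 1125, 763, 1047 and 877 CPM in LOS. LOS 2, LOS 3, LOS 5 and LOS 6 lay above every control, and the log2 fold change was 0.65 ± 0.24 (SE; edgeR unadjusted p = 0.0203, adjusted p = 0.932). CCN2 (CTGF; chr9:69887199-69890434) had 1348, 491.5, 2322, 638 and 1727 CPM in controls and 1679, 2622, 1922, 2196, 1523 and 1487 CPM in LOS. The controls were split, with controls 2 and 4 well below the rest. Controls 1, 2 and 4 lay below every LOS library. The estimate was 0.59 ± 0.38, and 0.303 without control 2.

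The remaining members act in survival and signalling and moved little. MCL1, a short-lived relative of BCL2 that protects from apoptosis, was the least variable of the 41, with 326 ± 33.6 CPM in controls, 342 ± 34.7 CPM in LOS and an estimate of 0.06 ± 0.10. IER3, a small protein of cell survival, had -0.10 ± 0.12. SGK1, a kinase related to AKT and induced by serum, had 0.21, GADD45B, a stress-induced growth regulator, 0.25, and TNFAIP3, an inhibitor of NF-κB, -0.13.

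Before the group difference, these genes were variable between cultures of one group. The median within-group SD of log2 CPM was 0.449 over the 41 members against 0.306 over all genes tested, and 36 of 41 members lay above that all-gene median. DUSP4 (1.14, at low counts), NR4A2 (1.00) and FOSL1 (0.78) had the highest SDs, and MCL1 (0.15), DUSP6 (0.21) and IER3 (0.22) the lowest. Libraries differed as wholes: the members' median deviation from their gene medians was 0.421 on the log2 scale in LOS 2 and 0.294 in LOS 5, with 34 and 26 of 41 members above the median. Control 5 stood at -0.324, with 5 members above the median and the lowest value of all libraries for 9. LOS 6 stood at -0.154 and held the lowest value for 10 members, although its FOS, FOSB and KLF6 were among the highest. LOS 2, LOS 5 and control 5 had similar total counts, at 14391329, 13646744 and 14540432. The share of counts from mitochondrial genes was lowest in LOS 2, at 2.11%, and highest in control 5, at 3.28%, with 2.38% in LOS 5 and 2.37% in LOS 6, and its part in the members' levels was not tested.

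Marker lists of other cell types had sums in LOS 2 and LOS 5 within the range of the controls for keratinocytes, at 7.4 and 6.95 CPM. Endothelial markers summed to 48.3 and 19.4 CPM and pericyte and smooth muscle markers to 204 and 182 CPM, also within the range of the controls. Single markers went beyond it in LOS 2, in both directions. LOS 2 had the highest value of all libraries for the pericyte genes NOTCH3 (21.9 CPM, at most 9.93 in controls) and RGS5 (4.43 CPM, at most 3.06 in controls). It was also highest for the keratin genes KRT5 (1.96 CPM) and KRT14 (0.871 CPM). From the same lists, LOS 2 lay below every control for MCAM (0.0726 CPM, at least 0.540 in controls) and ABCC9 (0.653 CPM, at least 1.43). The same held for MYH11 (4.355 CPM, at least 4.377) and the keratinocyte marker CDH1 (1.02 CPM, at least 1.78). CSPG4 and KCNJ8 lay within the range of the controls. The part of these markers in the levels of LOS 2 was not tested. PMEL, a melanosome protein and marker of melanocytes, ran from 3.95 CPM in control 5 to 166 CPM in control 2, and its values in LOS 2 and LOS 5 were 37.3 and 43.1 CPM. PMEL and NGFR, a receptor of neural crest cells, both had lower means in LOS, at 27.3 ± 16.4 against 64.4 ± 61.5 CPM for PMEL (edgeR unadjusted p = 0.182) and 0.862 ± 0.751 against 5.95 ± 5.87 CPM for NGFR (unadjusted p = 0.0188), and 0 of these were called. The part of PMEL and NGFR in the members' levels was not tested. Adipocyte markers stayed within 9.28 to 38.4 CPM.

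**Figure D3:**
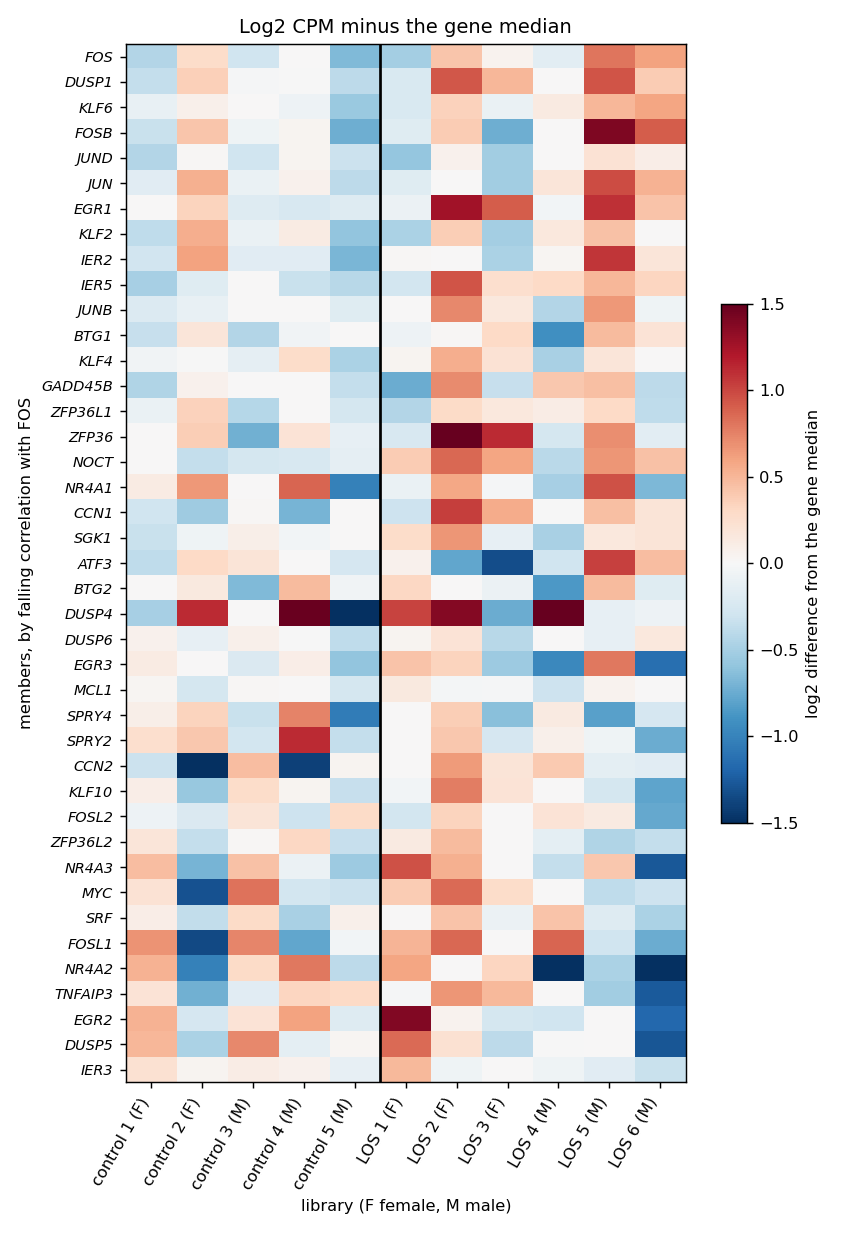
Log2 CPM of each tested member minus its median over the 11 libraries, with members ordered by falling correlation with FOS and libraries named by group, number and sex. Colours end at 1.5 in either direction. LOS 2 is above the median for 34 of 41 members, LOS 5 for 26 and control 5 for 5. The order was taken from these same libraries, so a contrast between the rows at the top and at the foot is built in.

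Whether members went up and down together was read from 3 anchors. The anchors FOS for AP-1, DUSP6 for ERK feedback and CCN1 for the YAP and MRTF branch, were each correlated with the 40 other tested members over the 11 libraries, 120 relations in all, with permutation tests of 100000 resamples and Benjamini-Hochberg adjustment over all 120. With FOS, DUSP1 had r = 0.906 (rho = 0.936; permutation adjusted p = 0.0120 for r and 0.0144 for rho). KLF6 had r = 0.902 with FOS (rho = 0.882; permutation adjusted p = 0.0120 and 0.0498), and FOSB had r = 0.854 (rho = 0.845; permutation adjusted p = 0.0219 and 0.0796). The 3 called partners of FOS are thus another FOS protein, a zinc finger factor and the phosphatase DUSP1. Over the 3 anchors 5 relations were called, each with a positive r. Called or not, r was positive for 26 of 40 members with FOS, 32 with DUSP6 and 29 with CCN1. With 11 libraries, a relation that was not called is not shown to be absent.

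At the other end, IER3 (r = -0.620), DUSP5 (-0.599) and EGR2 (-0.513) had the lowest correlations with FOS, and their permutation adjusted p were 0.259, 0.295 and 0.431. CCN1 was correlated with IER5 (r = 0.858, rho = 0.727; permutation adjusted p = 0.0219 and 0.196) and EGR1 (r = 0.812, rho = 0.70; permutation adjusted p = 0.0492 and 0.196). NOCT came next at r = 0.774 (permutation adjusted p = 0.0861). IER3 (-0.458), SPRY2 (-0.396) and SPRY4 (-0.383) were the lowest with CCN1.

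DUSP6 had no called partner, and its highest correlations were with SPRY4 (0.608), DUSP4 (0.590) and KLF6 (0.536), with permutation adjusted p of 0.292, 0.329 and 0.402. Its lowest were with BTG1 (-0.329), FOSL2 (-0.259) and TNFAIP3 (-0.224). Centred on group means, 2 of 120 relations were called, FOS with DUSP1 (r = 0.880) and FOS with KLF6 (0.873). The other relations lost their call with r at 0.835 (FOS with FOSB), 0.743 (CCN1 with IER5) and 0.690 (CCN1 with EGR1). Without the pair of libraries farthest from the anchor's median (control 5 and LOS 5 for FOS, control 4 and LOS 2 for CCN1), 0 of 120 were called, and r was 0.835 for DUSP1, 0.839 for KLF6 and 0.712 for FOSB with FOS, and 0.736 for IER5 and 0.664 for EGR1 with CCN1. Leaving out the extreme libraries narrows the range of the anchor and leaves 9 libraries, so fewer relations can pass. FOS itself had r = 0.36 with the log2 total count and CCN1 r = -0.401.

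**Figure D4:**
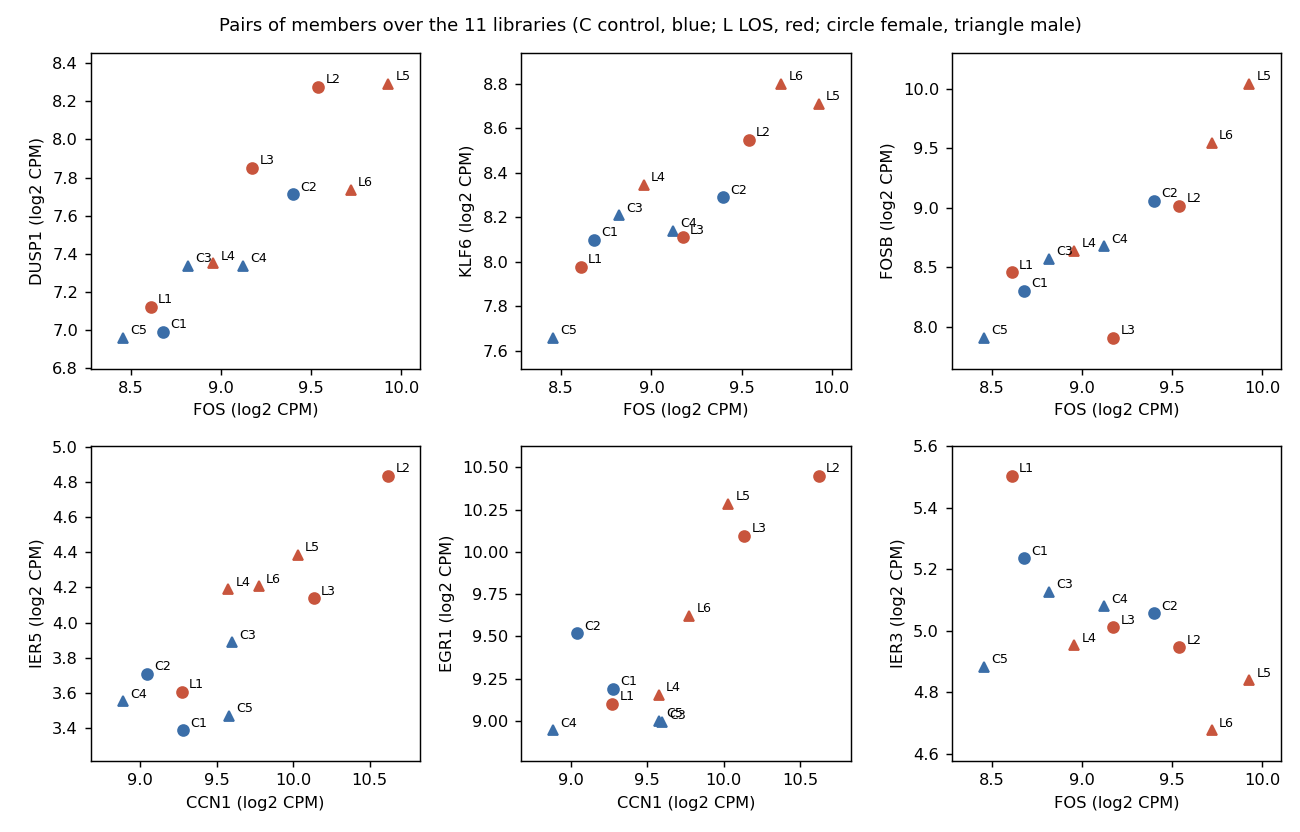
Log2 CPM of 6 pairs of members in the 11 libraries (C control, blue; L LOS, red; circles female, triangles male). In the FOS panels with DUSP1, KLF6 and FOSB control 5 is at the lower left and LOS 5 at or near the upper right, and in the IER3 panel r is -0.620.

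Sex alone set no member apart. Between males and females 0 of 41 members were called (background 0.0472%), and 0 had an unadjusted p under 0.05 (background 3.30%), the smallest being 0.0614 for ZFP36. For the interaction of group and sex, which asks whether the LOS difference is the same in both sexes, 0 members were called (background 0%), and the lowest adjusted p was 0.921. JUN, NR4A2, IER2, TNFAIP3 and FOSB, 5 members (12.2%), had an unadjusted p under 0.05, against 4.95% of all genes. JUN had means of 274 CPM in control females and 201.5 in LOS females, but 213.5 in control males and 355 in LOS males (interaction 1.18 ± 0.37 on the log2 scale, edgeR unadjusted p = 0.00928). FOSB had the same shape, with 425 and 370 CPM in females and 343 and 735 CPM in males (1.30 ± 0.58, unadjusted p = 0.0486). NR4A2 had the opposite one, with 45.8 and 59.5 CPM in females and 58.4 and 19.5 CPM in males (-1.97 ± 0.77, unadjusted p = 0.0282). Only 2 control females stand behind these values, so they rest on few fetuses.

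Around the members, gene lists of the pathway were read in the same fit, and 0 genes were called in each of them. Their counts are to be read against 49.8% of all genes tested with an estimate above 0 and 4.44% with an unadjusted p under 0.05. The lists were chosen with earlier results of these data known, so their counts are not separate support for those of the members. Of 30 growth factor receptor and RAS-ERK cascade genes, 20 had estimates above 0 (median 0.0836), and 3 had an unadjusted p under 0.05, each with a higher mean in LOS. These were IGF1R, the receptor for insulin-like growth factors (369 ± 74.5 and 519.5 ± 91.4 CPM, log2 fold change 0.50 ± 0.16, edgeR unadjusted p = 0.00792), EGFR, the receptor for epidermal growth factor (0.36 ± 0.13), and RPS6KA1, an ERK-activated kinase (0.87 ± 0.35, at under 1 CPM on average in both groups). Of 20 further genes listed for ERK feedback and output, 7 were above 0 and 13 below (median -0.042), and 0 had an unadjusted p under 0.05. SPATA2, ETV1 and DUSP7 had the smallest p in that list. SRF partners and CREB factors split 6 and 6, and p38 and JNK kinase genes 8 and 7, with 0 at an unadjusted p under 0.05 in both.

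Of 37 tested other early response genes, 30 had estimates above 0 (median 0.231, against 49.8% and -0.000702 for all genes), and 4 had an unadjusted p under 0.05 (against 4.44%). PPP1R15A, which reverses the block of translation under stress, had 139 ± 7.1 CPM in controls and 174 ± 24.1 CPM in LOS (0.34 ± 0.10). SLC2A3, a glucose transporter, had 70.3 ± 12.7 and 119 ± 40.4 CPM (0.78 ± 0.23), and TRIB1, a pseudokinase that acts on MEK and C/EBP factors, had 7.95 ± 3.61 and 19.4 ± 10.4 CPM (1.37 ± 0.44). LOS 2 held the highest value of TRIB1 and SLC2A3, and LOS 5 that of PPP1R15A. Of 16 YAP and MRTF targets, 14 were above 0 (median 0.168), TPM1, MYL9 and AMOTL2 had the smallest p with estimates of 0.31, 0.33 and 0.25, and 0 had an unadjusted p under 0.05. Heat shock genes, a readout of protein stress, had 4 above 0 and 7 below.

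Genes of proliferation went the other way by estimate, with 0 of 21 above 0 and a median of -0.413, and 1, the replication factor CDC45 (-0.47 ± 0.15), had an unadjusted p under 0.05. Their summed level was lowest in LOS 6, LOS 5 and LOS 2, at 283, 285 and 305 CPM, and highest in LOS 1, at 795 CPM, against 375.5 to 642 CPM in controls. LOS 2 and LOS 5 were most often the highest library for a member and LOS 6 most often the lowest. All 3 had sums below every control, and LOS 1, with the highest sum, had a median member deviation of 0. The part of proliferation in the members' levels was not tested.

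The hybrid cross allows the maternal and paternal copies of a gene to be read apart, where the parents differ in sequence. Parent and breed are the same contrast here, so they cannot be told apart. Of the 42 members 33 had reads in the allelic table, 16 of them in all libraries, and 22 had the depth to be tested. Reads are listed there nearly always from both copies together, so a strictly one-sided member would not show.

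Between LOS and control, 0 of 22 members had a changed allelic share (edgeR adjusted p under 0.05; background 0%), and 0 had an unadjusted p under 0.05 (background 4.32%). The smallest p were 0.0861 for CCN1, 0.0979 for DUSP5, 0.130 for NR4A3, 0.192 for SRF and 0.214 for FOS (edgeR unadjusted). CCN1 had a maternal share of 45.4% ± 3.88 (SD, n = 3) in controls and 50.2% ± 4.06 (n = 5) in LOS, with reads in 8 of the 11 libraries that ranged from 273 to 4951. FOS had 52.5% ± 3.91 (n = 5) and 48.6% ± 5.62 (n = 6), on 82 to 1761 reads. The maternal share of FOS was lowest in LOS 2, at 39% on 82 reads. DUSP5 had 51.2% ± 7.97 (n = 5) and 35% ± 11.2 (n = 5), on at most 108 reads per library. Its LOS mean includes LOS 6, at 20% on 5 reads. The allelic reads of DUSP5 exceeded its expected counts in 2 libraries, so its share is uncertain.

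Against an even share, 3 of 22 members (13.6%) were called, where 20.5% of the 5696 genes tested were, so the members' share of calls lay below the background. All 3 had more maternal reads: MCL1, FOSL2 and FOSB. Of the genes called in the whole table, 579 had more maternal and 586 more paternal reads. MCL1 had a maternal share of 56.6% ± 3.77 (SD, n = 5) in controls and 55.7% ± 2.01 (n = 6) in LOS, above 50% in 11 of 11 libraries (log2 ratio 0.35 ± 0.05, edgeR adjusted p = 1.49e-05). Its share ran from 51.5% in control 3 (95% Clopper-Pearson interval 49.3 to 53.8, 1950 reads) to 61.5% in control 1 (57.4 to 65.5, 579 reads). Intervals cover counting error only, since reads made by PCR are not independent molecules.

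FOSL2, a FOS relative of later timing, had 55.7% ± 3.22 (n = 5) and 54.6% ± 2.75 (n = 6), above 50% in 11 of 11 libraries (0.30 ± 0.04, edgeR adjusted p = 2.83e-05). Its allelic reads exceeded its expected counts in all 11 libraries, so the tables do not count it alike, and its share is uncertain. FOSB had 49.6% ± 6.30 (n = 5) and 54.1% ± 2.99 (n = 6), above 50% in 10 of 11 libraries (0.19 ± 0.05, edgeR adjusted p = 0.0134). The exception was control 5, with 38.5% on 13 reads (95% interval 13.9 to 68.4). In the LOS males the total level of FOSB ran from 399 to 1056 CPM, and in those libraries its maternal share stayed between 51% and 55.1%. FOS (0.04 ± 0.07) and ATF3 (0.02 ± 0.06), on means of 803 and 563 reads per library, had ratios within their SE of 0. The 3 calls held under each alternative run.

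**Figure D5:**
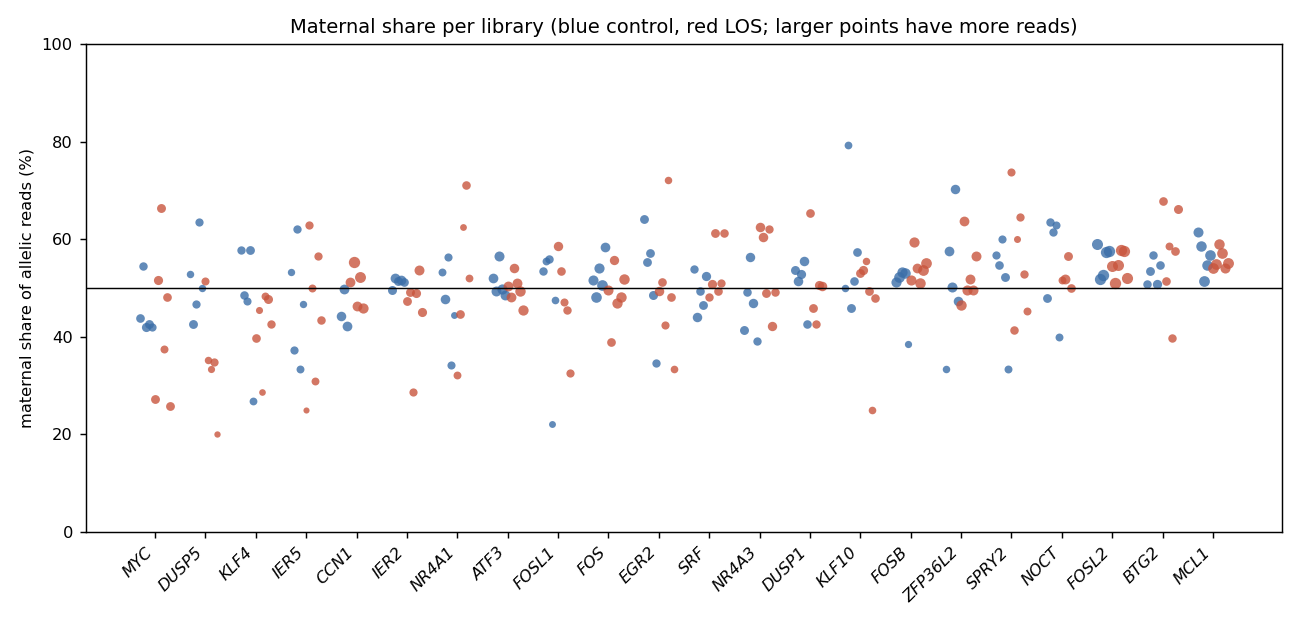
Maternal share of allelic reads (%) in each library with reads, for the 22 tested members, ordered by their fitted log2 ratio (blue control, red LOS; larger points have more reads; the line is 50%). MCL1 and FOSL2 lie above the line in 11 of 11 libraries, and members with few reads scatter widely on both sides.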

How the data were processed

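The authors deposited 1 table of expected counts per gene for 21862 annotated genes and 5536 assembled loci, not normalised; 71.2% of its values are whole. A second table deposited by the authors holds whole read counts per parental allele for 9716 genes, and the third holds expected counts split by the allelic share for 4347 genes, with 0 of 47817 products beyond a tolerance of 0.001. Per the submitters' processing notes, the build was ARS-UCD1.2 and the tools included Salmon 0.11.1, HISAT2 2.1.0, StringTie 2.1.4, GATK and edgeR 3.36.0. Which tool made the counts, whether strand was used and how alleles were assigned is not given in the sources here.

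Expected counts were rounded and fitted over all genes in R 4.3.3 with edgeR 4.0.16 (TMM, filterByExpr, sex plus group, quasi-likelihood test, Benjamini-Hochberg threshold 0.05). CPM are scaled to TMM library sizes, and log2 CPM use a prior count of 2. DESeq2 1.42.0 and limma 3.58.1 were alternatives. Allelic share was fitted with a term per library, for genes averaging at least 20 allelic reads and with 10 or more in at least 3 libraries of each group. Libraries of a group differed far beyond sampling noise (chi-square per degree of freedom 21.1 to 96.7), so none was the same library sequenced again. This check cannot tell separate fetuses from separate cultures or preparations of the same fetus.

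The members and lists were chosen with earlier results of these data known. Full values are given for a fixed set of 15 members, for any called member and for the 8 members with the smallest p; for each list up to 3 genes with the smallest p; for each anchor the 3 highest and 3 lowest r. The scripts were tested on simulated data. Gene lengths and sequences of the build were not used here, so levels of different genes are not compared.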

Additional observations from a re-analysis of the deposited data

Results flagged for a closer look

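Within a group, 3 members had 1 library whose gap to its nearest neighbour was large for the group's range (Dixon's rule at the 95% level). EGR2 stood at 21.42 CPM in LOS 1, where the next LOS library, LOS 2, had 8.42 CPM. IER3 stood at 45.22 CPM in LOS 1, and the next, LOS 3, had 32.1 CPM. IER2 stood at 83.27 CPM in LOS 5, and the next, LOS 6, had 44.6 CPM. These are 3 of the 82 sets of a member and a group examined (3.66%), and chance gives about 1 in 20.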

How the results depend on the processing

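No member was called between LOS and control by edgeR, DESeq2, limma voom, with other scaling factors, without the filter or the sex term, with the replicate block, or with any 1 library left out; the smallest adjusted p was 0.305, without LOS 1. Same-numbered libraries correlated at 0.257, 0.155, -0.166, -0.16 and -0.038, and 2 of 5 controls correlated best with their own number. These values had no reference beside them, so they cannot decide whether equal replicate numbers mark paired samples. The main fit used no pairing. With the replicate block, 0 members were called, 34 were higher and 7 lower, and these estimates changed sign: BTG1 -0.0632, DUSP5 0.303, EGR2 0.127, FOSL2 0.181, NR4A1 0.0424 and ZFP36L2 0.0551. With voom, ATF3 was -0.0572 and EGR3 -0.146. Without both LOS 2 and LOS 5, chosen after seeing the data, ATF3 was -0.135, EGR3 -0.481, GADD45B -0.073, JUND -0.033, KLF10 -0.0642, KLF2 -0.154, KLF4 -0.00541, NR4A3 -0.137 and ZFP36L1 -0.0563. Leaving out 1 library at a time, estimates that changed sign ranged from -0.214 to 0.259 (ATF3), -0.238 to 0.122 (BTG2), -0.2 to 0.908 (DUSP4), -0.0123 to 0.123 (DUSP6), -0.52 to 0.00821 (EGR2), -0.387 to 0.22 (EGR3), -0.0504 to 0.532 (FOSL1), -0.0881 to 0.14 (FOSL2), -0.147 to 0.203 (KLF10), -0.0564 to 0.329 (KLF2), -0.17 to 0.473 (MYC), -0.479 to 0.154 (NR4A1), -0.145 to 0.317 (NR4A3), -0.411 to 0.0621 (SPRY4), -0.0369 to 0.203 (SRF), -0.416 to 0.104 (TNFAIP3), -0.00248 to 0.215 (ZFP36L1) and -0.213 to 0.0608 (ZFP36L2). In all, 18 of 41 members kept their sign in every alternative and 23 did not; the cause was not tested. Called correlations fell from 5 to 2 centred on group means and to 0 without the pair of libraries farthest from the anchor's median, where r turned to -0.0633 for DUSP6 with DUSP4 and to 0.268 for DUSP6 with TNFAIP3; with 9 libraries fewer relations can pass. Against an even allelic share, 4 members were called without LOS 3 (MYC added) and without LOS 4 (BTG2 added), and 3 otherwise. For the interaction, leaving out a control female leaves 1, which is assumed to vary like the other libraries. Members under about 1 CPM, DUSP2 and DUSP4, are limited by depth.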
